A study of Homo sapiens with 23 samples.

Results

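LAPC4 and LNCaP are human prostate cancer cell lines that both respond to androgen, and their baseline transcriptomes were compared here in 7 of the 23 RNA sequencing libraries of a series on the transcription factor ONECUT2 (OC2). The libraries were the 3 labelled Vec of the LAPC4 table, the controls of OC2 overexpression in that line, and 4 LNCaP libraries of a separate table: 2 labelled Control, from the LNCaP overexpression experiment, and 2 labelled shCon, the controls of an OC2 knockdown whose columns are named sh202. The LAPC4 cells grew in IMDM with 10% serum and 1 nM of the synthetic androgen R1881, and the LNCaP cells in RPMI with 10% serum. No label says that libraries of a group came from separate cultures, so p-values measure the spread between these libraries, which may be technical. Cell line, medium and table cannot be told apart, and every difference below is a difference between these libraries. Of 57608 Ensembl ids held by both tables, 27287 were above 0 in at least 1 library of each, and 17770 of these passed the filter on low counts and were tested.

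Prostate epithelium has a luminal layer, which secretes kallikreins and depends on androgen, and a basal layer, which expresses keratins such as KRT5 and adheres to the basement membrane through integrins and laminins. Prostate cancers mostly resemble the luminal layer. Both lines derive from lymph node metastases. LNCaP is widely used as a luminal model and carries a rearranged ETV1 gene. LAPC4 was established from a xenograft.

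Counts per library ran from 28586064 to 29697366 in LAPC4 and from 21686338 to 23272088 in LNCaP. Levels below are CPM, the usual measure of counts relative to library size, adjusted by edgeR's TMM factors, and a log2 fold change is LAPC4 minus LNCaP. Against Control, 14256 of 17770 genes were called (80.2%), 7273 higher (40.9%) and 6983 lower (39.3%) in LAPC4, and 5206 of them were at least 4-fold apart (29.3%). Against shCon, 14139 were called (79.6%), with 7188 higher (40.5%), 6951 lower (39.1%) and 5106 at least 4-fold apart (28.7%). The LNCaP sets also differed from each other, with 7927 genes called (44.6%) and 1414 at least 4-fold apart (7.96%). A gene was therefore named a large difference only if it was called and at least 4-fold apart in the same direction against both sets, averaged at least 5 CPM in the higher line (in each LNCaP set for LNCaP) and did not overlap between the 3 LAPC4 and 4 LNCaP libraries. By this rule 712 genes were higher in LAPC4 (4.01% of those tested) and 1006 were lower (5.66%). The comparisons share the LAPC4 libraries, so their agreement is not independent.

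The kind of counting moved with many of these differences. The LAPC4 table holds whole counts and the LNCaP table estimated counts, and the series' drug table holds both kinds for LNCaP itself: whole counts in the enzalutamide columns and estimated counts in the vehicle columns. There, drug and counting cannot be told apart. Of the 815 genes lower in LAPC4 with a value in that table, 247 (30.3%) were also at least 4-fold lower in the enzalutamide columns, against 4.50% of all tested genes with a value. The share was 46.1% (222 of 482) where a gene shares an exon with another annotated gene and 7.51% (25 of 333) where it does not. RPL26, which encodes a ribosomal protein, stood at 20.6, 19 and 10.6 CPM in LAPC4 and 463 to 544 CPM in LNCaP, and its enzalutamide columns lay -5.86 from vehicle on the log2 scale. HEXA, which encodes a lysosomal hexosaminidase subunit, was at 0 in the Vec libraries, with a log2 value of -2.54 in this check, but stood at 25.8 CPM in the OC2-overexpressing LAPC4 libraries, which were counted like Vec. ECE2, which encodes an endothelin-converting enzyme, went the other way, at 21.9, 24.1 and 24.2 CPM in LAPC4, 0 in LNCaP and 7.17 in that check. Of the genes higher in LAPC4, 147 of 627 (23.4%) were at least 4-fold higher in the enzalutamide columns, against 6.54% of all tested genes.

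**Figure D1:**
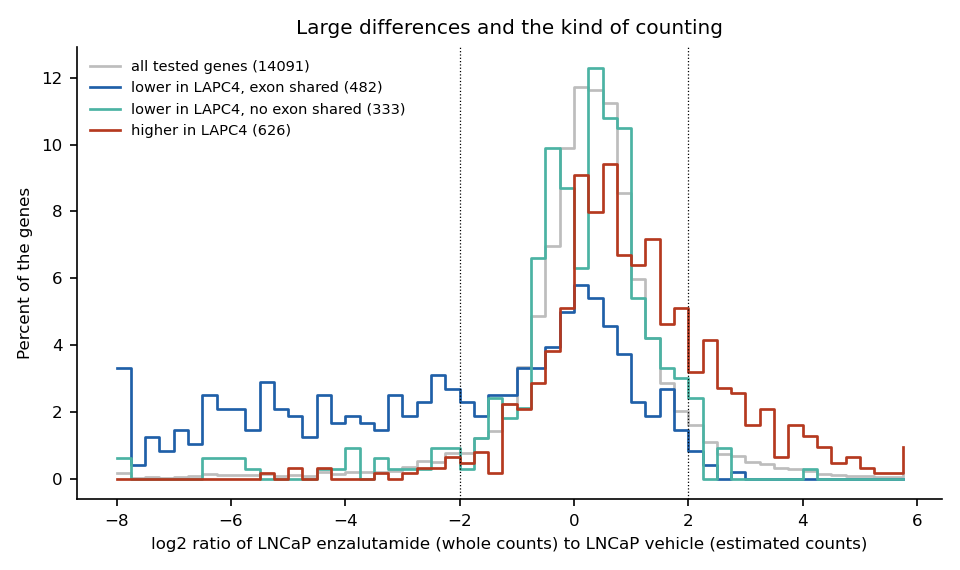
Histogram of the log2 ratio of LNCaP enzalutamide columns (whole counts) to LNCaP vehicle columns (estimated counts), in percent of the genes of each set, for all tested genes and for the large differences by direction and by shared exon (genes on Y not drawn). The genes lower in LAPC4 that share an exon spread far to the left of the dotted line at -2, where 46.1% of them lie, against 7.51% of those with no shared exon.

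A set of 5919 genes is called unambiguous here: protein-coding, with no exon shared with another gene, no second annotated copy, a value in the drug table, and less than 4-fold between the enzalutamide and vehicle columns. Counts and medians of gene lists below are over all tested members, many of which are not unambiguous, and the count among unambiguous members is given beside each count by direction. The term does not cover close paralogs, between which the kinds of counting may split reads in different ways. Of the 5919, 249 were large differences higher in LAPC4 (4.21%) and 278 lower (4.7%). Called in both comparisons without regard to size were 2280 higher (38.5%) and 1652 lower (27.9%). A further LNCaP set, the 3 vehicle libraries of the drug table, lay at least 4-fold on the same side of LAPC4 for 579 of 627 higher genes with a value (92.3%) and 782 of 815 lower genes (96.0%), and on the opposite side for 3 and 0. These genes were picked with the same LAPC4 values. The vehicle libraries are also LNCaP with estimated counts, so this agreement was largely set by the choice of genes and is not independent. Of the 278 unambiguous lower genes, 145 stood at 5 CPM or more in the OC2-overexpressing LAPC4 libraries of the same table, where the counting was the same as for Vec. Of the 249 higher genes 214 did. The rule set no limit on the Vec level of a lower gene, so some of the 145 may pass 5 CPM in Vec too. At least 4-fold above Vec in those libraries were 70 of the 278 and 8 of the 249, and at least 4-fold below Vec were 0 and 7. The lower genes were picked with low Vec values, so the choice of genes favours values above Vec. The share over all unambiguous genes was not computed for these counts, so they are not read as a result about the genes.

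**Figure D2:**
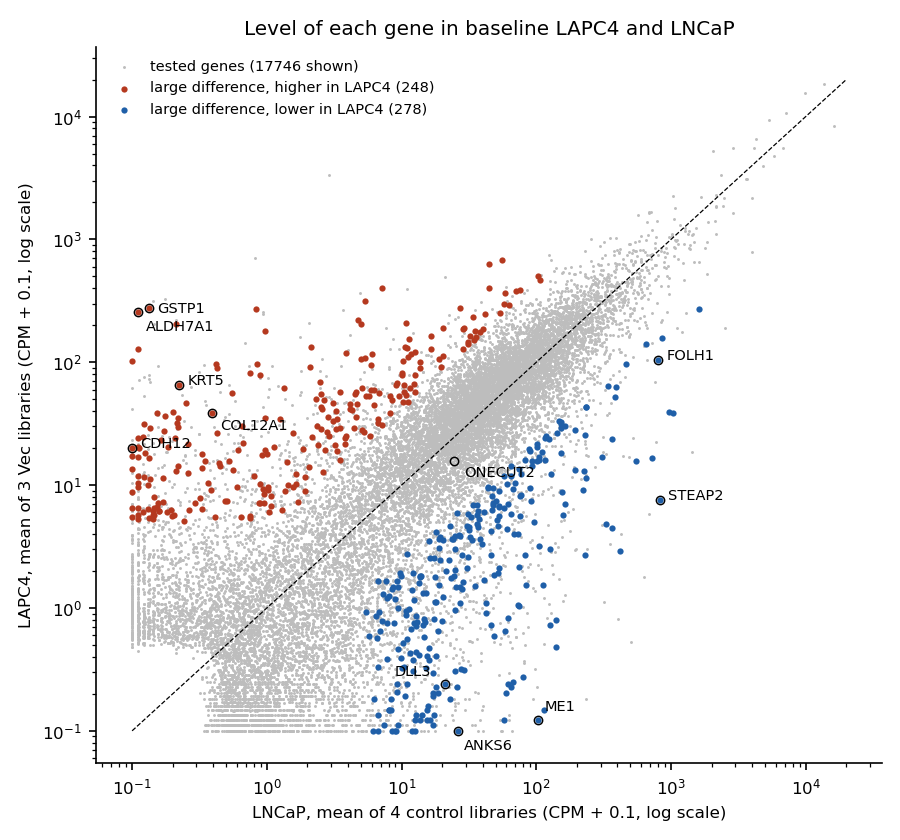
Mean level of each tested gene in the 4 LNCaP libraries (x axis) and the 3 LAPC4 libraries (y axis), both CPM plus 0.1 on log scales, with unambiguous large differences in red (higher in LAPC4) and blue (lower). Circled genes are named in the text, the dashed line marks equal levels, and a gene at 0 lies at 0.1 (genes on Y not drawn). Named genes such as GSTP1 and ALDH7A1 lie near the floor of LNCaP, and ME1 and ANKS6 near the floor of LAPC4.

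ONECUT2 itself was expressed in every library, at 13.5, 17.4 and 16.4 CPM in LAPC4, 24.7 and 31.1 in Control and 20.6 and 21.3 in shCon. The LAPC4 libraries lay below all 4 LNCaP libraries. The log2 fold change was -0.82 against Control (SE 0.13, adjusted p = 0.000258) and -0.41 against shCon (SE 0.14, adjusted p = 0.0177), so the gap was well under 4-fold. Against shCon the call was lost without LAPC4 replicate 1, at -0.30 (adjusted p = 0.0532), without shCon replicate 1, at -0.44 (adjusted p = 0.0608), and without shCon replicate 2, at -0.39 (adjusted p = 0.0904).

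Among unambiguous genes, some of the steepest differences were of the on and off kind. GSTP1, a glutathione transferase whose promoter is known to be methylated in most prostate cancers, stood at 285, 270.3 and 267 CPM in LAPC4, while all 4 LNCaP libraries held 3 counts in total. The ratio of summed CPM was 8285-fold (exact Clopper-Pearson 95% interval 2835 to 40177, which covers counting error only, as without molecular identifiers reads are not independent molecules). ALDH7A1, an aldehyde dehydrogenase of lysine breakdown, stood at 241, 261 and 264 CPM against 1 LNCaP count (23172-fold, interval 4158 to 915278). In the other direction ME1, the cytosolic malic enzyme that yields NADPH, held 2 counts over the 3 LAPC4 libraries and stood at 74.6 and 79.7 CPM in Control and 129 and 127 in shCon (4462-fold, interval 1235 to 36849.5). ANKS6, an ankyrin-repeat protein of the primary cilium, was at 0 in LAPC4 and at 21.4 and 20.9 CPM in Control and 31.1 and 30.7 in shCon, at least 248-fold lower on a floor of 3 counts per library.

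The 250 bases before the RefSeq start of these genes are shown with those of 2 further genes described below, LGALS3 and KRT5, as the sequence that CpG methylation could act on. Methylation was not measured here. They are from RefSeq (GRCh38.p14), 5′ to 3′ on the strand of the gene, with every CG in capitals.
GSTP1 (chr11:67583562-67583811, plus strand): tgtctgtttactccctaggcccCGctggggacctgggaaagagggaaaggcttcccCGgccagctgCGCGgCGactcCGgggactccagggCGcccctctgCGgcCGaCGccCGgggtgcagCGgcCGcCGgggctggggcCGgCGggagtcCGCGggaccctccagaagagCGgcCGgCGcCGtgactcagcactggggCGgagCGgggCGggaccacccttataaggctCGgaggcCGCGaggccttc
ALDH7A1 (chr5:126595220-126595469, minus strand): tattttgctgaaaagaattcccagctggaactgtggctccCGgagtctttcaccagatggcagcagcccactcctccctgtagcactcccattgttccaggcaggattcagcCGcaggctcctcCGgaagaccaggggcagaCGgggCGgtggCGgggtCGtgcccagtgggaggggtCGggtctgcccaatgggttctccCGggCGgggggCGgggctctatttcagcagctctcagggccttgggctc
LGALS3 (chr14:55129002-55129251, plus strand): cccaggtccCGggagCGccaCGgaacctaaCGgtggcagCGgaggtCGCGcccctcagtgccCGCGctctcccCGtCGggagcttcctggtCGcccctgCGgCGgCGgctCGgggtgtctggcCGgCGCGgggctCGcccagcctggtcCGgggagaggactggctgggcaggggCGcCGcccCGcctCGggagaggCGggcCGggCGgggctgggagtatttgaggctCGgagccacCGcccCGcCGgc
KRT5 (chr12:52520395-52520644, minus strand): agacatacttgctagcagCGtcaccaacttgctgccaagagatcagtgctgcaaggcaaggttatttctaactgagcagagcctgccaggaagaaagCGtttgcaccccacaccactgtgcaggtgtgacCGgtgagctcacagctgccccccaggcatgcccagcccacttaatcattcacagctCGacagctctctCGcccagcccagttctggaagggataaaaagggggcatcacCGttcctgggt
ME1 (chr6:83431052-83431301, minus strand): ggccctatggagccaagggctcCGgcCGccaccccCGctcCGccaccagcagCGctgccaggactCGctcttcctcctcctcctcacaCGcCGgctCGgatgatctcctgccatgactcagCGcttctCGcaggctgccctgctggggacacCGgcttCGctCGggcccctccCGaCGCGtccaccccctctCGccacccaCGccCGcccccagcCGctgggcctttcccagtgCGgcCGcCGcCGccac
ANKS6 (chr9:98796556-98796805, minus strand): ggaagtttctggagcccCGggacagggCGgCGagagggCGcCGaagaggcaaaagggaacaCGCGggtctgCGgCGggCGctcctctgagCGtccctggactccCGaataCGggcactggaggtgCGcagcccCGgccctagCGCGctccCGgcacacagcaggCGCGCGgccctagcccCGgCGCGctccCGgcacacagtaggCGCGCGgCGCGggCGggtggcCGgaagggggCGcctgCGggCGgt

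Of 11067 tested protein-coding genes with such a sequence, 26.3% held at least as many CG as GSTP1 (28), 36.1% as ME1 (25) and 9.47% as ANKS6 (35), but 81.3% held at least as many as ALDH7A1 (11) and 89.7% as KRT5 (6). For LGALS3 (32) the share was 15.6%. A CG reads the same on both strands. The table matched 192 of 249 unambiguous higher and 217 of 278 lower genes, under 80% of each, so no comparison of the sets is given here.

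Several other leading genes higher in LAPC4 were also at or near 0 in LNCaP. GRIA4, a glutamate receptor subunit, stood at 100.5, 97.4 and 107 CPM and CDH12, a neural cadherin, at 16.8, 20.1 and 22.6, with 0 in the 4 LNCaP libraries, so that GRIA4 was at least 769-fold higher. GALNT13, which starts O-glycosylation of mucins, was at least 129-fold higher and CCDC144NL at least 101-fold. LGALS3, the galactoside-binding lectin galectin-3, stood at 228, 211 and 179.9 CPM against 10 LNCaP counts in all (1873-fold, interval 1018 to 3907). CALML5, a calmodulin-like protein of keratinocytes, stood at 125, 124 and 137 CPM against 1 count, and FLRT3, a transmembrane protein that binds FGF receptors, at 30.4, 30.8 and 32.3 against 2. GJA1, the gap junction protein connexin 43, stood at 61, 72.6 and 86.5 CPM against 3 counts, but its enzalutamide columns were 3.78 higher than vehicle on the log2 scale. TENT5B, which has no value in the drug table, stood at 71.4, 67 and 67.2 CPM against 3 counts. DHRS2, a short-chain dehydrogenase, reached 3676, 3486 and 2945 CPM against 3.3 and 3.25 in Control and 2.21 and 2.33 in shCon, with -4.34 in the same check.

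Most leading genes lower in LAPC4 were silent or nearly so there. HPR, a haptoglobin-related plasma protein, and KCND3, a voltage-gated potassium channel, were at 0, at least 119-fold and 114-fold lower. RAMP1, a receptor partner that forms the CGRP receptor, held 4 LAPC4 counts in all and stood at 189 and 168 CPM in Control but 49.2 and 50.1 in shCon. IRX4, a homeodomain factor, showed the same split of the LNCaP sets, at 95.4 and 84.7 CPM in Control and 24.3 and 24.4 in shCon against 2 LAPC4 counts. ACOT2, a mitochondrial acyl-CoA thioesterase, stood at 0.139, 0.07004 and 0.177 CPM in LAPC4 and 54.6 to 71.5 in LNCaP, and RBM24, an RNA-binding splicing factor, at 0.0693, 0.21 and 0.0354 and 43.3 to 74.5. KLHDC9, STK33, SFTPA2 and SPIN2B completed the 12 that the naming rule gave, each with 1 or 2 LAPC4 counts. HPR, ACOT2, SFTPA2, SPIN2B and, among the genes higher in LAPC4, CCDC144NL have close paralogs, so their values are uncertain.

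Only ids above 0 in at least 1 library of each table were kept, so ids at 0 throughout a table are not among those counted here. Left out, whatever their level in the other table, were 5526 ids at 0 throughout the LNCaP table and 4060 at 0 throughout the LAPC4 table. Of the ids kept, 17 were at 0 in the 4 LNCaP libraries and at 5 CPM or more in each LAPC4 library. Of the 17, 11 are protein-coding and 6 unambiguous. Without Control replicate 2 the number was 33. The reverse held for 16 ids, 13 protein-coding and 7 unambiguous. The latter include CBLC, a ubiquitin ligase of the CBL family, at 6.46 and 5.41 CPM in Control and 7.98 and 6.58 in shCon. ANKS6, also among them, was at 6.93 CPM in the OC2-overexpressing LAPC4 libraries, so the LAPC4 table can count it.

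**Figure D3:**
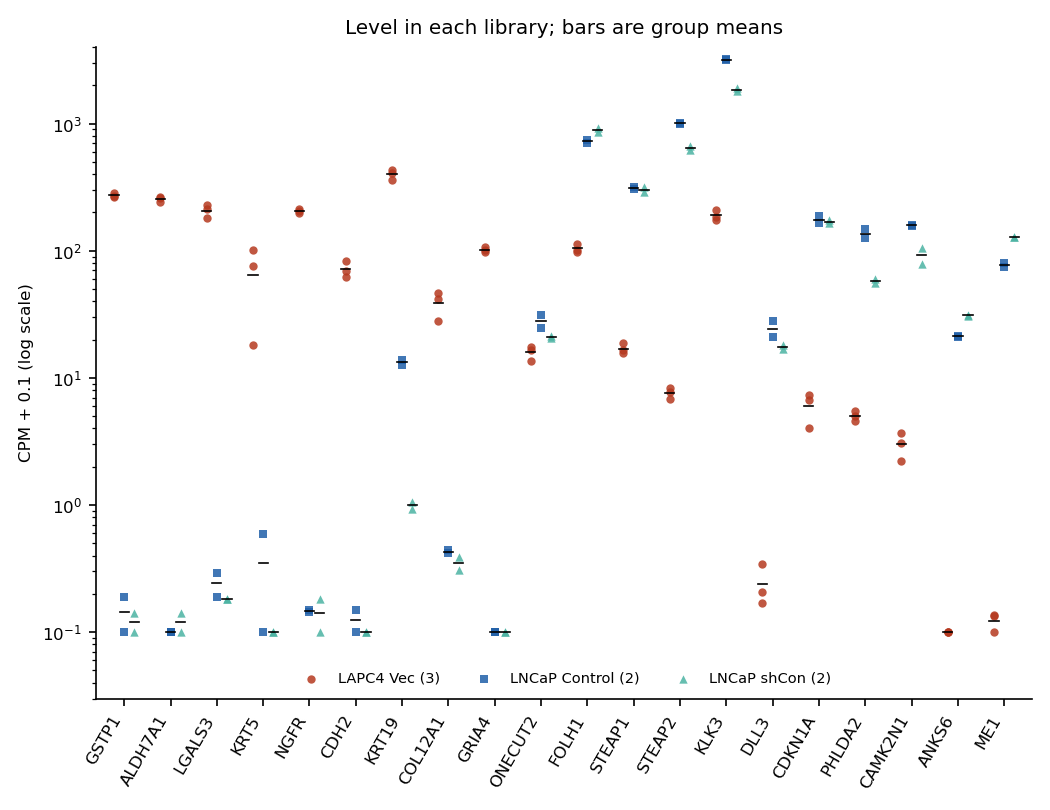
Level of 20 named genes in each library, CPM plus 0.1 on a log scale, with LAPC4 as red circles, LNCaP Control as blue squares, LNCaP shCon as green triangles and black bars for group means. Each gene except ONECUT2 is at least 4-fold apart against both LNCaP sets, and KRT5 spans 18.1 to 101 CPM within LAPC4.

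Luminal markers were expressed in both lines. Of 9 luminal markers none was at 0 in any group, and their summed level was 2939 to 3012 CPM in LAPC4, 6456 to 6555 in Control and 5506 to 5670 in shCon. Of the 21 luminal genes tested, 7 were higher and 11 lower in LAPC4 in both comparisons (33.5% and 32% of all tested genes were), and the median log2 fold change was -0.51 against Control and -0.64 against shCon, where all tested genes had 0.04 in both. Of the 10 unambiguous members, 4 were higher and 6 lower. The list counts below are to be read against these shares of all tested genes. Counts among unambiguous members are to be read against the 38.5% higher and 27.9% lower of all unambiguous genes. The luminal keratin gene KRT8 and the pioneer factor gene FOXA1 were higher in LAPC4 by 2.16-fold and 1.86-fold against Control (1.82 and 1.36 against shCon), and both share an exon with another gene. HOXB13, a prostate homeodomain factor, was 1.93-fold and 2.23-fold lower. CDH1, which encodes E-cadherin, stood at 616, 666 and 719 CPM in LAPC4 and 526 to 679 in LNCaP, so the groups overlapped, and its sign against Control changed without LAPC4 replicate 3 or Control replicate 1.

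Large differences split this group. KRT19, a simple-epithelium keratin, stood at 434, 406 and 359 CPM in LAPC4, 12.6 and 13.8 in Control and 0.836 and 0.958 in shCon. TSPAN1, a tetraspanin, stood at 181, 185 and 194 against 21 to 38.6 CPM. Lower in LAPC4 were the STEAP family membrane protein genes STEAP1 and STEAP2, which are targets of prostate cancer therapy. STEAP2 stood at 8.21, 7.6 and 6.69 CPM in LAPC4, 988 and 1015 in Control and 663 and 625 in shCon, a log2 fold change of -7.06 (SE 0.11, adjusted p = 9.63e-11) and -6.42 (SE 0.10, adjusted p = 9.41e-11). STEAP1 was 18.3-fold and 17.8-fold lower. FOLH1, which encodes the membrane antigen PSMA used in imaging and named here after its values were seen, stood at 98.3, 101 and 113 CPM in LAPC4 against 705 to 925 in LNCaP, 6.95-fold and 8.53-fold lower. HPN, the serine protease hepsin, was 226-fold and 325-fold lower but shares an exon with another gene.

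Androgen-induced genes were mostly lower in LAPC4, although only its medium is labelled with added R1881. Of 23 tested, 15 were lower and 3 higher in both comparisons, with medians of -1.10 and -0.94. Of the 7 unambiguous members, 1 was higher and 5 were lower. KLK3, which encodes prostate-specific antigen, stood at 175, 184 and 209 CPM in LAPC4, 3231 and 3142 in Control and 1794 and 1903 in shCon, 16.8-fold and 9.76-fold lower. KLK2, a related kallikrein, was 2.56-fold and 1.55-fold lower. Both were also at least 4-fold lower in the enzalutamide columns (-2.16 and -3.50). Enzalutamide blocks androgen signalling, and for these genes its action and the counting cannot be told apart. TMPRSS2, a serine protease gene that is unambiguous, was 1.8-fold lower against Control and 2.01-fold against shCon. TRPM8, a cold-sensing cation channel, stood at 5.51, 7.25 and 9.31 CPM against 32.9 to 52.5 and shares an exon. EAF2, an elongation factor partner, was the large exception, at 44.6, 39.6 and 36.5 CPM in LAPC4, 4.66 and 4.42 in Control and 1.84 and 1.71 in shCon. Androgen-repressed genes had medians of opposite sign against the sets (1.14 with genes at 0 taken at their bound and -1.08), and CAMK2N1, a kinase inhibitor, was 54.5-fold and 31.9-fold lower.

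Basal genes had the highest median of the 33 lists in each comparison. Of 22 members, 16 passed the filter, which a gene high in one line alone can do. Of these, 12 were higher in both comparisons and 0 lower in both, with medians of 3.60 and 2.85. Among the 8 unambiguous members these counts were 5 and 0. KRT5, the basal keratin, stood at 101, 75.7 and 18.1 CPM in LAPC4, while the LNCaP libraries held 11 counts in all, each of them in Control replicate 2. LAPC4 replicate 3 was well below the other two, yet above every LNCaP library (log2 fold change 7.95, SE 1.09, adjusted p = 0.000125 against Control). SFN, the epithelial 14-3-3 protein, stood at 50.9, 57.1 and 58.7 CPM in LAPC4, 1.21 and 0.992 in Control and 3.59 and 3.87 in shCon. KRT15, a basal keratin that shares an exon with another gene, stood at 89.3, 82.3 and 64.3 CPM against 3 LNCaP counts. NGFR, the low-affinity neurotrophin receptor, stood at 211, 206 and 197 CPM against 4 counts, and ITGB4, the hemidesmosome integrin, at 61.9, 64.5 and 56.9 against 1.54 to 4.37, though the enzalutamide columns were higher than vehicle for NGFR and ITGB4 (3.27 and 3.08). The summed level of 5 basal markers was 84.1 to 193 CPM in LAPC4, 0.29 to 0.86 in Control and 1.21 to 1.42 in shCon. In LAPC4 the sum was almost all KRT5 and KRT15. KRT14 stood at 1.45, 0.946 and 0.708 CPM in LAPC4, 0.194 and 0.225 in Control and 1.09 and 1.12 in shCon, so it overlapped with shCon. CD44 was at most 0.991 CPM in LAPC4 and 0.25 in LNCaP. TP63, the factor that defines basal cells, was at most 0.245 CPM in LAPC4 and at 0 in LNCaP. In bulk samples a share of basal-like cells and a low level in every cell cannot be told apart.

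Markers of each further cell type summed to at most 35.7 CPM in any library. Fibroblast markers summed to 3.54 to 5.74 CPM in LAPC4, 14.4 to 14.9 in Control and 29.7 to 35.7 in shCon, mostly COL1A1 (2.97 to 4.48 CPM in LAPC4 and 14.1 to 34.9 in LNCaP), while DCN and LUM were at 0 in LNCaP. Endothelial markers summed to at most 9.04 CPM, with PECAM1 at 0 throughout, and blood markers to at most 0.31 CPM in any library. Neuroendocrine markers summed to 2.46 to 3.47 CPM in LAPC4 and 2.23 to 3.04 in LNCaP. Within the wider neuroendocrine list, 8 of 24 members were tested. The calcium-binding protein gene SCGN was higher in LAPC4 (4.4, 4.8 and 7.72 CPM against 0 to 0.194), and SYT4, a synaptotagmin of secretory vesicles, was lower (0.624, 1.26 and 2.69 against 48.1 and 50.6 in Control and 8.02 and 7.08 in shCon).

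Adhesion genes differed in both directions. Of 29 tested cadherin and junction genes, 15 were higher and 5 lower in LAPC4 in both comparisons, and 7 were large differences, each of them higher. Of the 15 unambiguous members, 9 were higher and 1 lower, and 2 were large differences, each of them higher. Over all tested genes, 4.01% were large differences higher in LAPC4 and 5.66% lower. CDH2, which encodes N-cadherin, stood at 62.3, 69.4 and 82.3 CPM in LAPC4 against 1 LNCaP count, and CDH11, a mesenchymal cadherin, at 17.7, 18.4 and 17.7 against 4, and both share an exon with another gene. VIM, the mesenchymal filament protein vimentin, was lower in LAPC4, at 1.73, 0.911 and 1.73 CPM against 7.57 and 9.15 in Control and 24.8 and 29.7 in shCon, and also shares an exon. Of 33 integrin, laminin and collagen genes 16 were higher and 8 lower. The balance was the other way among the 12 unambiguous members, with 3 higher and 4 lower. COL12A1, a fibril-associated collagen, stood at 46.1, 41.5 and 27.9 CPM in LAPC4 and 0.208 to 0.34 in LNCaP, and COL6A2, a microfibril collagen, was lower, at 4.43, 4.73 and 4.14 against 27.6 to 51.3.

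Of 19 tested receptor kinases and ligands outside the ERBB family, 10 were higher and 4 lower. Among the 10 unambiguous ones 5 were higher and 2 lower. Of 10 tested ERBB receptors and ligands 3 were higher and 3 lower (1 and 2 of the 4 unambiguous ones), with medians of -0.24 and -0.47. ERBB4, a neuregulin receptor, stood at 8.14, 10.2 and 11.7 CPM in LAPC4 against 3 counts in LNCaP. ERBB3, its kinase-impaired relative, was 2.87-fold and 2.51-fold higher, and ERBB2 2.17-fold and 1.34-fold, and both share exons. FGFR2, an FGF receptor, stood at 50.1, 51.9 and 54.6 CPM against 1.59 to 3.79, and its enzalutamide columns lay 2.29 above vehicle. GAS6, ligand of the TAM receptors, was lower, with 4 LAPC4 counts against 11.7 to 13.4 CPM, and shares an exon.

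In the Wnt pathway 15 of 28 tested genes were higher and 6 lower. Of the 13 unambiguous members, 5 were higher and 3 lower. RNF43, a ubiquitin ligase that removes Wnt receptors, was 8.54-fold and 5.67-fold lower, and LEF1, a transcription factor of the pathway, was 6.96-fold and 5.61-fold higher, and both share an exon. The enzalutamide columns of LEF1 lay 2.53 above vehicle.

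Of 23 lineage transcription factors tested, 12 were higher and 7 lower in LAPC4, with 7 and 1 large differences. Among the 8 unambiguous factors 4 were higher and 3 lower, with 2 and 1 large differences. GATA2, a cofactor of androgen signalling, stood at 286, 279 and 259.7 CPM in LAPC4 and 241 to 270.4 in LNCaP and was called against neither set. TBX3, a T-box repressor, was 2.45-fold and 2.74-fold lower. NR2F1, an orphan nuclear receptor, stood at 89.5, 93.5 and 96.8 CPM against 0.971 and 1.26 in Control and 0.0836 and 0.25 in shCon, and TBX2, a T-box factor, at 19, 17.7 and 15.4 against 2.04 and 1.26 in Control and 0.167 and 0.125 in shCon, and both share an exon. NR3C1, the glucocorticoid receptor, stood at 6.06, 7.04 and 7.26 CPM against 0 to 0.208, and its enzalutamide columns lay 4.04 above vehicle.

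Of 22 ETS factors 12 were higher and 2 lower. Among the 11 unambiguous ones the counts were 6 and 1. ETV4 stood at 58, 60.6 and 53.6 CPM in LAPC4 and 0.0902 to 0.669 in LNCaP, and ETV5 at 12.4, 14 and 13 against 0.406 to 0.878. ELF3, an epithelial ETS factor, was 9.79-fold and 4.25-fold higher. These 3 share exons with other genes, and the enzalutamide columns of ETV4 lay 2.30 above vehicle, while the epithelial factor EHF is unambiguous and was 2.18-fold and 2.48-fold higher. ETV1, named here after its values were seen, held 2 counts in LAPC4 and stood at 106 and 107 CPM in shCon, but at only 0.68 and 0.541 CPM in the libraries labelled Control. The vehicle libraries held 186 CPM on average, so the low Control level goes against what LNCaP is known for, and ETV1 was no large difference. Of 29 HOX genes 15 were higher and 5 lower, but 24 of the 29 are not unambiguous. Of the other 5, 2 were higher and 3 lower. HOXA9, which shares an exon and lay 2.84 above vehicle in the check of counting, stood at 22.6, 18.6 and 16.6 CPM in LAPC4 and 0.0417 to 0.34 in LNCaP, and HOXB9, which is unambiguous and was named after its values were seen, was lower at 1.63, 1.58 and 1.49 against 6.83 to 11.

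Most targets of the p53 pathway, which arrests damaged cells, were lower in LAPC4. Of 26 tested, 17 were lower and 3 higher in both comparisons, with medians of -0.59 and -0.62, and 11 of the 14 unambiguous members were lower against 1 higher. CDKN1A, the cell cycle inhibitor p21, stood at 7.24, 6.62 and 3.97 CPM in LAPC4, 186 and 164 in Control and 175 and 164 in shCon, and shares an exon. BTG2, an antiproliferative factor, stood at 1.42, 1.58 and 1.77 CPM against 31.3 to 52.1, 20.3-fold and 30.6-fold lower. SPATA18, a factor of mitochondrial quality control, held 4 counts in LAPC4 and stood at 5.06 to 11.5 CPM in LNCaP. PHLDA3, an inhibitor of AKT, was at 0 in LAPC4 and at 49.4 to 83.8 CPM in LNCaP, at least 626-fold lower, and shares an exon. MDM2, the p53 ubiquitin ligase and itself a target, stood at 98.1, 95.5 and 93.9 CPM against 87 to 102 and was called against neither set (adjusted p = 0.442 and 0.0834).

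Many interferon-stimulated genes were lower in LAPC4. Of 26 interferon-stimulated genes 17 were lower and 2 higher in both comparisons, with medians of -2.06 and -2.51. Of the 11 unambiguous members, 1 was higher and 5 were lower, so fewer of them than not were lower. Over all unambiguous genes the shares were 38.5% higher and 27.9% lower. IFI6, an antiviral membrane protein, stood at 0.208, 0.07004 and 0.142 CPM in LAPC4 and 7.98 to 10.4 in LNCaP. IFITM3, which blocks viral entry and shares an exon, stood at 0.831, 1.09 and 1.42 against 98.5 to 124. STAT2, which carries the interferon signal, went the other way at 118, 111 and 80.01 CPM against 22.2 and 21 in Control and 36.9 and 37.3 in shCon.

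Of 21 genes of the MHC class I pathway, which presents peptides to T cells, 15 were lower and 3 higher, with medians of -1.94 and -2.46. TAP2, a subunit of the peptide transporter that shares an exon, stood at 1.32, 1.93 and 1.2 CPM in LAPC4 against 49 to 55.2 in LNCaP. The 4 unambiguous members were lower in both comparisons. B2M, the invariant light chain, stood at 45, 48.5 and 52.3 CPM in LAPC4 and 182 to 187 in LNCaP, a log2 fold change of -1.92 (SE 0.08, adjusted p = 1.01e-08) and -1.94 (SE 0.08, adjusted p = 1e-08). The other three, named after their values were seen, were the chaperone gene TAPBP (2.75-fold and 3.62-fold lower), the transactivator gene NLRC5 (3.84 and 8.11) and the peptide trimming gene ERAP2 (3.05 and 5.91).

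**Figure D4:**
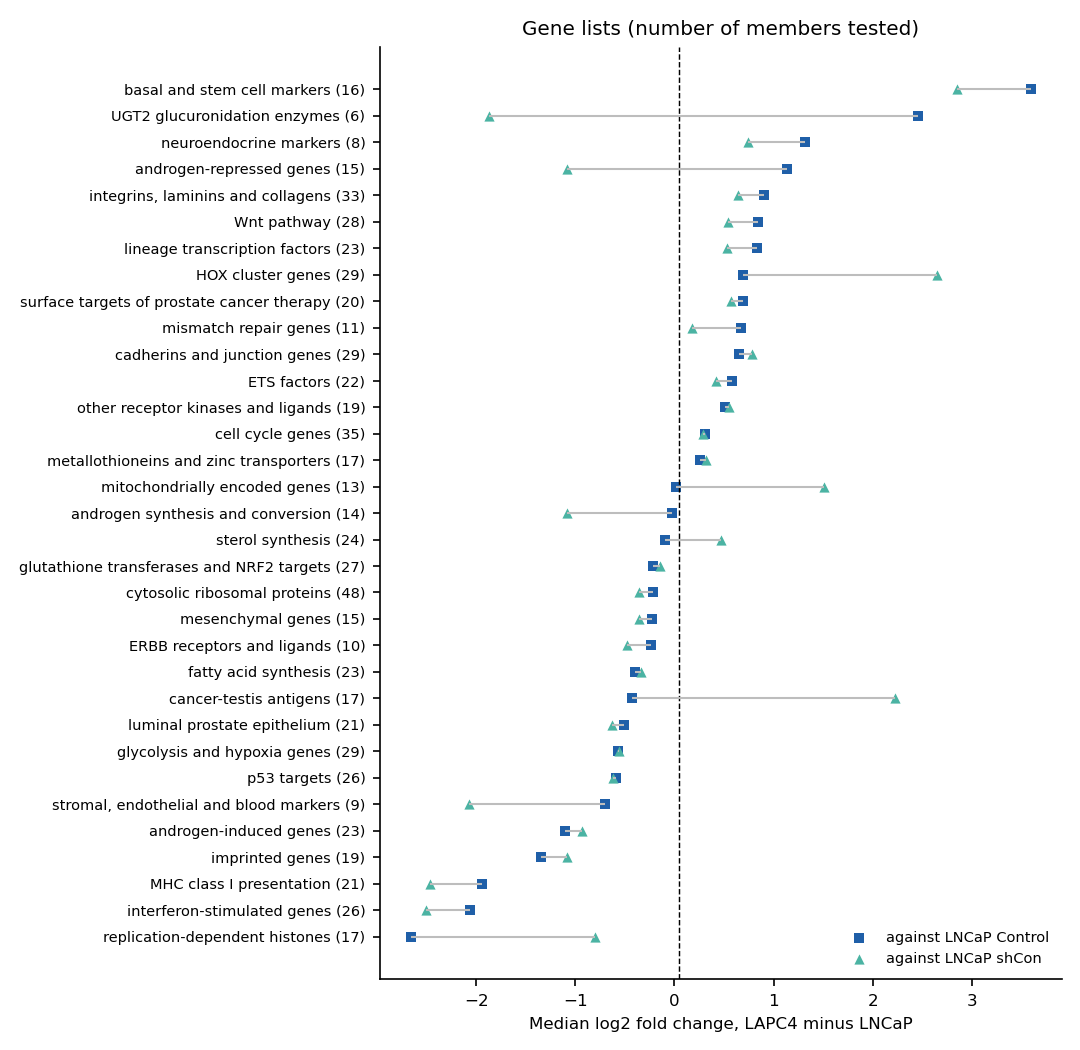
Median log2 fold change (LAPC4 minus LNCaP) of the tested members of 33 gene lists, against Control as blue squares and against shCon as green triangles, with genes at 0 in a group taken at their bound and the median of all tested genes as a dashed line. Basal genes have the highest medians against both sets (3.60 and 2.85), while interferon-stimulated and MHC class I genes lie near -2 or below against each set, and for some lists the sets point in opposite directions.

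Cancer-testis antigens, which tumours express out of place, had medians of opposite sign against the sets (-0.43 and 2.23 with bounds). MAGEA11 stood at 33.7, 32.3 and 29.7 CPM in LAPC4 against 10 LNCaP counts, and SSX2 at 7.72, 5.43 and 2.9 CPM against 0 in LNCaP, at least 40.5-fold higher. SSX2 has a near-identical copy, so its reads are uncertain. MAGEA2, a near copy of other MAGE genes, was lower (0.208 to 0.385 CPM against 56.7 to 111) with -6.22 in the check of counting. DLL3, a Notch ligand and target of antibody therapy in neuroendocrine tumours, held 12 LAPC4 counts and stood at 27.7 and 21 CPM in Control and 17.9 and 16.8 in shCon.

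Of 29 glycolysis and hypoxia genes 18 were lower and 2 higher, with medians of -0.57 and -0.56. Of the 9 unambiguous members, 1 was higher and 5 were lower. CA12, a membrane carbonic anhydrase induced by hypoxia, was 4.44-fold and 7.75-fold lower, while ADM, a vasoactive peptide gene of the same response, stood higher at 8.69, 6.97 and 6.44 CPM against 0.225 to 0.543. PFKP, the platelet phosphofructokinase, shares an exon and stood at 2.39, 2.45 and 3.36 CPM against 106 to 157. FASN, the fatty acid synthase, was 2.22-fold and 3.11-fold higher, and ACACB, the mitochondrial acetyl-CoA carboxylase, was 9.57-fold and 8.57-fold lower. Of 27 glutathione transferases and NRF2 targets 11 were higher and 10 lower, and of the 16 unambiguous ones 5 and 7. Beside GSTP1 this list held GSTO1, an omega-class transferase, which was lower at 5.51, 6.09 and 5.28 CPM against 31.1 to 42.6. Among cell cycle genes 15 of 35 were higher and 9 lower (10 and 5 of the 21 unambiguous ones), with E2F2, an S-phase activator, at 110.4, 113 and 112 CPM against 18.2 to 22.5.

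Imprinted genes, expressed from one parental copy, were lower in 7 and higher in 3 of 19 cases, and the share that was lower is near the 32% of all tested genes. Of the 3 unambiguous members 2 were lower and 0 higher. PHLDA2, a growth suppressor in placenta, stood at 4.47, 5.36 and 4.92 CPM in LAPC4, 147 and 125 in Control and 55.4 and 59.8 in shCon. NDN, the gene of necdin, stood at 6.69, 7.07 and 8.11 CPM against 49 to 52. SNRPN, a spliceosome gene of the same imprinted region, stood at 1.32, 1.19 and 0.566 against 307 to 333, but shares exons and had -4.97 in the check of counting.

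Large differences also lay side by side on chromosomes. On chromosome 13 (hg38, 72727749 to 73077542) BORA, a mitotic kinase activator, DIS3, an exosome nuclease, PIBF1, a centrosome protein, and KLF5, an epithelial transcription factor, were all higher in LAPC4. KLF5 is the unambiguous one, at 56, 60.5 and 66.8 CPM in LAPC4, 7.72 and 7.75 in Control and 2.13 and 2.5 in shCon, and DIS3 stood at 92.8, 93.6 and 109.6 against 15.4 to 18.1. BORA, DIS3 and PIBF1 share exons, and none of the 4 was 4-fold apart between the kinds of counting. The median of the 222 tested protein-coding genes of the chromosome was -0.65 against Control and -0.12 against shCon, so the run went against its chromosome. On chromosome 1 (201373244 to 201509456) LAD1, TNNI1, PHLDA3 and CSRP1 were all lower. They all share exons. CSRP1, a LIM-domain protein of actin filaments, stood at 12.1, 12.3 and 8.67 CPM against 197 to 230.5, and LAD1, a basement membrane filament protein, at 37.4, 37.9 and 37.6 against 250.4 to 311. The other 3 runs of 4 or more neighbours, on chromosomes 1, 5 and 22 and all lower in LAPC4, each hold 2 or 3 genes that were 4-fold apart between the kinds of counting.

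By chromosome, the median log2 fold change of protein-coding genes was at least 0.25 in both comparisons on chromosomes 2 (0.45 and 0.35), 3 (0.28 and 0.26), 14 (0.28 and 0.26) and 17 (0.28 and 0.30), and at most -0.25 on X (-0.29 and -0.31). Chromosomes 13 and 22 lay at -0.65 and -0.56 against Control but at -0.12 and -0.17 against shCon, and the LNCaP sets themselves differed there by -0.36 and -0.44 (shCon minus Control). Scaling by library totals moved the median of all genes against shCon from 0.0360 to -0.0822, and then 0 chromosomes were higher and 2 lower by this measure.

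**Figure D5:**
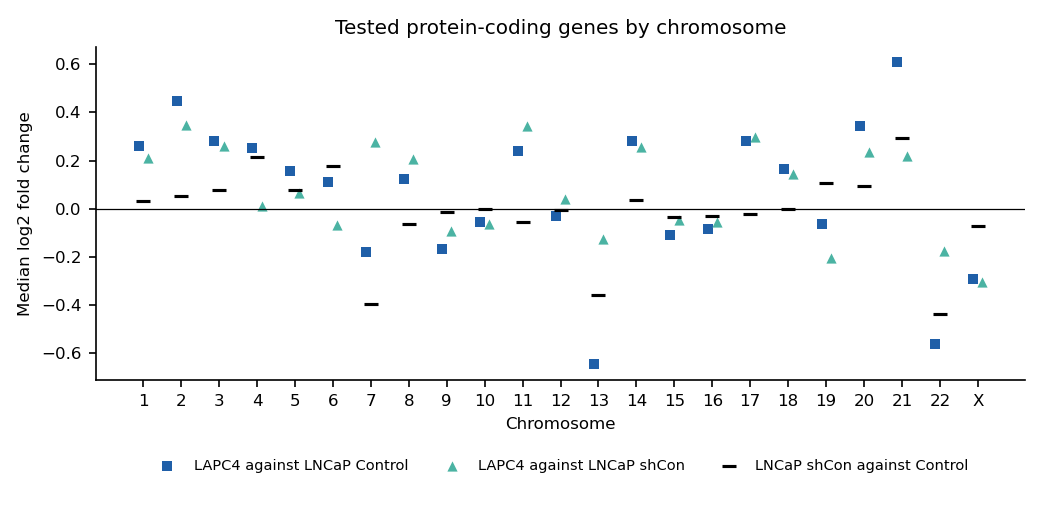
Median log2 fold change of tested protein-coding genes on each chromosome (Y left out), for LAPC4 against LNCaP Control (blue squares), LAPC4 against LNCaP shCon (green triangles) and LNCaP shCon against Control (black bars). Chromosomes 7, 13, 21 and 22 show gaps between squares and triangles, which is the difference between the LNCaP sets.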

How the data were processed

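Total RNA from 23 libraries of LNCaP and LAPC4 cells was sequenced, and 7 libraries were used here, grouped as the labels name them. Reads were aligned with Bowtie2 to hg38 after FastQC 0.9.0, per the submitters' processing notes. No label or header names the counter or annotation. The authors deposited whole counts per Ensembl id for LAPC4 and estimated counts for LNCaP, which were rounded. The deposited drug table holds estimated counts for vehicle and whole counts for enzalutamide columns, by symbol.

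Ids were joined without version. The 7 libraries were fitted together in edgeR 4.0.16 (quasi-likelihood F test, TMM, filterByExpr, Benjamini-Hochberg adjustment over all genes tested, threshold 0.05), and R was 4.3.3. Every p-value printed is from that test. The fit was tested on simulated data. Low counts got exact intervals at the 95% level or, at 0, a floor of 3 counts per library. Exon sharing is from GENCODE 29. DESeq2 1.42.0, other filters and scalings, and leaving out each library were tried.

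The genes named were ONECUT2, the 12 highest and 12 lowest large differences by the smaller log2 fold change (at least 10 CPM, no shared exon, no second copy), up to 4 large differences and 3 other abundant members of each list, and runs of neighbouring genes. CBLC, ETV1, HEXA, ECE2, TSPAN1, FOLH1, SFN, HOXB9, B2M, TAPBP, NLRC5, ERAP2, UGT2B17, UGT2B15, BCHE and PEG3, and the term unambiguous, were chosen after their values were seen. The comparison, its members and the lists were chosen with earlier results of these data known. Genes on Y and a few others that the rule gives are not reported here.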

Additional observations from a re-analysis of the deposited data

How the results depend on the processing

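Counts of called genes stayed within 1.5 times under DESeq2, other filters, library totals and all 14 libraries of the tables (13510 to 15383 against Control, 13395 to 15210 against shCon, 6900 to 9158 between the LNCaP sets). With each library left out they were 13254 to 14680, 12877 to 14583 and 5483 to 9912. Over protein-coding genes with no shared exon, where fewer genes were tested, 5604, 5628 and 3614 were called, and the large differences were 415 higher and 440 lower. With library totals the share of calls that were higher was 46.2% against shCon (50.8% with TMM) and 66.4% between the LNCaP sets (51%), and 0 chromosomes were higher and 2 lower. With no shared exon, 2 chromosomes were lower. Large differences moved with their definition: 1799 higher and 1809 lower at 2-fold, 430 and 628 at 8-fold, 1245 and 1719 at 1 CPM, 389 and 535 at 20 CPM, and 465 and 549 among genes not 4-fold apart between the kinds of counting, a setting chosen after seeing the data. Leaving out each library gave 685 to 718 higher and 1000 to 1031 lower. Ids at 0 in LNCaP numbered 64 at 1 CPM, 4 at 20 CPM, 51 with up to 1 count allowed and 17 to 33 with a library left out. Those at 0 in LAPC4 numbered 50, 6, 42 and 16 to 24.

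With the replicate number as a block, 14651, 14553 and 9659 genes were called, with 720 higher and 1005 lower large differences. Deviations from the group mean in same-numbered Control and shCon libraries had a correlation of -0.1250. With 2 libraries per group these deviations mirror each other, so the value cannot decide on a pairing. No label says that numbers pair the lines. The crossed block, added after seeing the data, gave 14696, 14594 and 9821 calls with 721 and 1005 large differences.

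For the genes named, 3362 of 3374 log2 fold changes under 15 alternatives kept their sign and side of the threshold. The sign changed for CDH1 against Control (-0.0388 with the block, -0.0389 crossed, -0.0683 without LAPC4 replicate 3, -0.0385 without Control replicate 1, and up to 0.0829 without LAPC4 replicate 1) and for GATA2 against Control (-0.00588 with no shared exon, -0.000386 without Control replicate 2 and up to 0.173 without Control replicate 1) and against shCon (-0.0489 with library totals, -0.0503 with no shared exon). The other 4 concern ONECUT2 and CDH1 against shCon, where adjusted p crossed the threshold, and the cause was not tested. Depth limits the genes at 0, where 3 counts per library is the smallest level set.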

Other observations

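A few genes stood far apart between the LNCaP sets and were no large differences between the lines. UGT2B17, a glucuronosyltransferase that inactivates androgen, held 1 LAPC4 count and stood at 0.874 and 0.676 CPM in Control, 44.1 and 38.2 in shCon and 134 on average in the vehicle libraries. UGT2B15, an enzyme of the same family, stood at 6.58, 5.18 and 6.3 CPM in LAPC4, 2.77 and 2.7 in Control and 39.95 and 33.2 in shCon, so it was higher in LAPC4 against one set and lower against the other. BCHE, the plasma cholinesterase, did the same, at 9.15, 14.9 and 27.3 CPM in LAPC4, 2.33 and 2.98 in Control and 252 and 198 in shCon. So did PEG3, an imprinted zinc finger gene that shares an exon, at 19.6, 18 and 16 CPM in LAPC4, 5.92 and 6.31 in Control and 638 and 661 in shCon. As for ETV1, the libraries labelled Control held the low LNCaP values of these 4 genes.

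Spread within LAPC4 fell unevenly on the libraries. Of the 712 genes higher in LAPC4, 63 were at least 2-fold apart between the highest and lowest Vec library, and replicate 3 was the lowest for 54 of them. Of the 1006 genes lower in LAPC4, 117 were at least 2-fold apart between the LNCaP sets, while 6 were within Control and 2 within shCon.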
